A study of Xenopus laevis with 8 samples.

Results

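The change from stage 10.5 (early gastrula) to stage 11.5 (mid gastrula) was described in animal cap explants of the frog Xenopus laevis, from 4 of the 8 messenger RNA libraries of a developmental series that also sampled stages 9 and 12.5. The 4 libraries were chosen by the stage in their titles, with 2 libraries at each stage. The titles carry an experiment letter, A or B, and each stage has 1 library of each letter, so that the stages could be compared within A and within B. All groups were wild type and untreated controls. Explants were cut from the animal pole of unmanipulated embryos at stage 8, healed in saline and cultured in diluted saline with gentamycin until the named stage. No treatment or transgene separates the stages. The labels do not say what a letter stands for, how many explants or clutches went into a library, or whether letters were separate cultures. The main fit used all 8 libraries, with stages 9 and 12.5 adding to its estimates of the spread and of the letter. Its p-values measure the spread left between the 8 libraries after stage and letter, which may be technical in part.

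The animal cap is the roof of the blastula and holds pluripotent cells whose default fate in culture is ectoderm. Bone morphogenetic protein (BMP) signals drive this ectoderm to epidermis, and their inhibition leaves it neural. The Xenopus embryonic epidermis is mucociliary: an outer layer of secretory cells covers a sensorial layer that gives rise to multiciliated cells, ionocytes and small secretory cells, with Notch signalling choosing among these fates, and to basal cells marked by trim29 and tp63.

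Total counts were 33170889 in stage 10.5 A, 35586229 in stage 10.5 B, 38340337 in stage 11.5 A and 34106665 in stage 11.5 B. Expression levels are CPM, the count scaled to a common total of 1e6, on TMM-scaled library sizes, and pairs of values are given in the order A, B. The labelled tissue was checked against marker lists. The summed level of 25 tested epidermal ectoderm markers was 8375 and 6844 CPM at stage 10.5 and 11330 and 10761 CPM at stage 11.5. Of these markers, 24 had a positive log2 fold change. Markers of other tissues were also present. Of the tested markers, 0 were at or under the floor of 3 counts in all 4 libraries. Only genes that had passed a filter on counts were tested, so that this number was largely set by the filter. Markers that the filter removed were not counted. The 14 tested neural markers summed to 967 and 1061 CPM at stage 10.5 and to 647 and 819 CPM at stage 11.5. The 6 germ plasm markers summed to 157 and 138 CPM and then to 164 and 161 CPM. Only 1 of these 6 had a positive log2 fold change, ddx4.L, and their median was -0.25. The level of ddx4.L was 120 and 112 CPM at stage 10.5 and 133 and 139 CPM at stage 11.5. The 12 endoderm markers summed to 17.3 and 22.6 CPM and then to 16.7 and 32.5 CPM. The 11 tested mesoderm markers summed to 88.6 and 224 CPM at stage 10.5 and to 80.6 and 110 CPM at stage 11.5. For mesoderm, B stood above A at both stages. In bulk RNA, fewer cells of a type and less RNA per cell cannot be told apart.

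Both stage 11.5 libraries stood apart in some genes. In stage 11.5 B, smad4.1.S, 1 copy of the gene for the common partner of receptor-activated Smads, held 1039346 counts, or 3.05% of the library. Its level was 2319 and 1569 CPM at stage 10.5 and 2944 and 31007 CPM at stage 11.5, and at 7.07 times the highest of the other 7 libraries the last value has no match at another stage. The fitted log2 fold change of 3.13 ± 0.94 (SE) was not called (edgeR quasi-likelihood test, adjusted p = 0.170), and it was 0.21 without stage 11.5 B. Without stage 11.5 A it was 4.43 and was called, but stage 11.5 B was then the only library of its stage and was assumed to vary like the other groups. The gene was treated as an outlier and is not counted among the changes. The other homeolog, smad4.1.L, was at 135 and 116 CPM and then at 150 and 179 CPM, without such an excess. At 5 CPM or more, 3 genes of stage 11.5 B exceeded 4 times their level in every other library, and 0 genes did so in stage 11.5 A or in either stage 10.5 library.

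Stage 11.5 A held raised levels of some RNAs that had been abundant at stage 9. Among 260 genes with at least 50 CPM at stage 9 and a fall of at least 3 on the log2 scale by stage 10.5, 12 were at least 2-fold higher at stage 11.5 than at stage 10.5 within A, and 1 was so within B. At least 2-fold lower were 11 of the 260 within A and 55 within B. Among all 20486 genes with a mean of at least 1 CPM, 500 were at least 2-fold higher within A and 589 within B. This rule was chosen after the values were seen. The cytoplasmic polyadenylation factor gene cpeb1.S was at 5.43 and 7.44 CPM at stage 10.5 and at 75.4 and 4.45 CPM at stage 11.5, and cpeb1.L was at 9.80 and 7.24 and then at 67.6 and 3.94 CPM. The B-type cyclin gene ccnb5.L was at 5.78 and 6.91 CPM and then at 33.2 and 4.06 CPM. In all 3 genes stage 11.5 A stood above the other 3 libraries. In all 12 genes the level of A at stage 12.5 was below that at stage 11.5. The median log2 difference of the 260 genes was -0.10 in A and -0.59 in B. Of the 260, 1 was called lower and 0 were called higher. The part of these RNAs in other results was not tested.

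**Figure D1:**
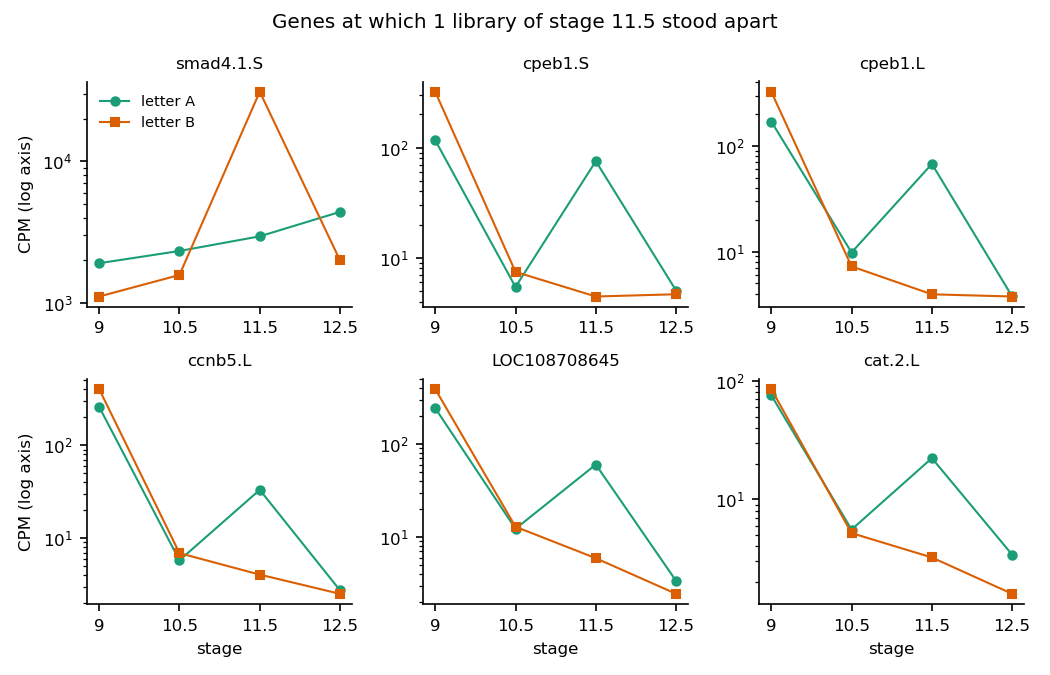
Expression level (CPM, log axis) of 6 genes by stage, with A as circles and B as squares, 1 library per point. smad4.1.S peaks in stage 11.5 B, and cpeb1.S, cpeb1.L, ccnb5.L, LOC108708645 and cat.2.L return upward in stage 11.5 A after their fall from stage 9, while B does not.

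A small set of genes passed the test between the stages. With the letter as a block, 39 genes rose and 12 fell of 28490 tested at a p under 0.05 after Benjamini-Hochberg adjustment (edgeR, quasi-likelihood F test), which is 0.137% and 0.0421% of the genes. The rises ranged from 1.54-fold to 8.52-fold, with a median of 2.94-fold. The falls ranged from -3.43 to -0.72 on the log2 scale, with a median of -1.23. All 51 genes moved the same way in A and in B, and in all 51 the levels of the stages did not overlap. Over all genes, 5875 were higher and 5285 lower without overlap. The smallest adjusted p was 0.0133, and 4306 genes had an unadjusted p under 0.05.

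The number of calls depended on the model. Without the block, 0 genes were called, and with the 4 libraries alone 1305 were, among them all 51. The fit of the 4 libraries alone, with the block, leaves 1 residual degree of freedom, against 3 in the main fit. Its estimate of the spread therefore rests on less, here and in the lists below. With edgeR's older dispersion estimate 21 were called, all of them among the 51. Leaving out 1 library gave 0 calls without stage 10.5 B, 1 without stage 10.5 A, 11.5 B, 12.5 A or 12.5 B, 23 without stage 11.5 A, and 178 and 229 without stage 9 A and B. Rises made up 76.5% of the calls, against 51.4% of 72 calls when libraries were scaled by total count alone, which shifts the median log2 fold change of all genes from 0.00084 to -0.13. Beside the fit without the block and the fits without single libraries, 10 alternatives were run, and 17 genes were called in all 10. They include krt12.L, krt12.S, krt5.7.S, gby.L, gnb3.S, nt5m.S, ulk1.S, cdc6.S, cited2.L, slc20a2.L, kiaa0586.L and sh2d3c.L.

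**Figure D2:**
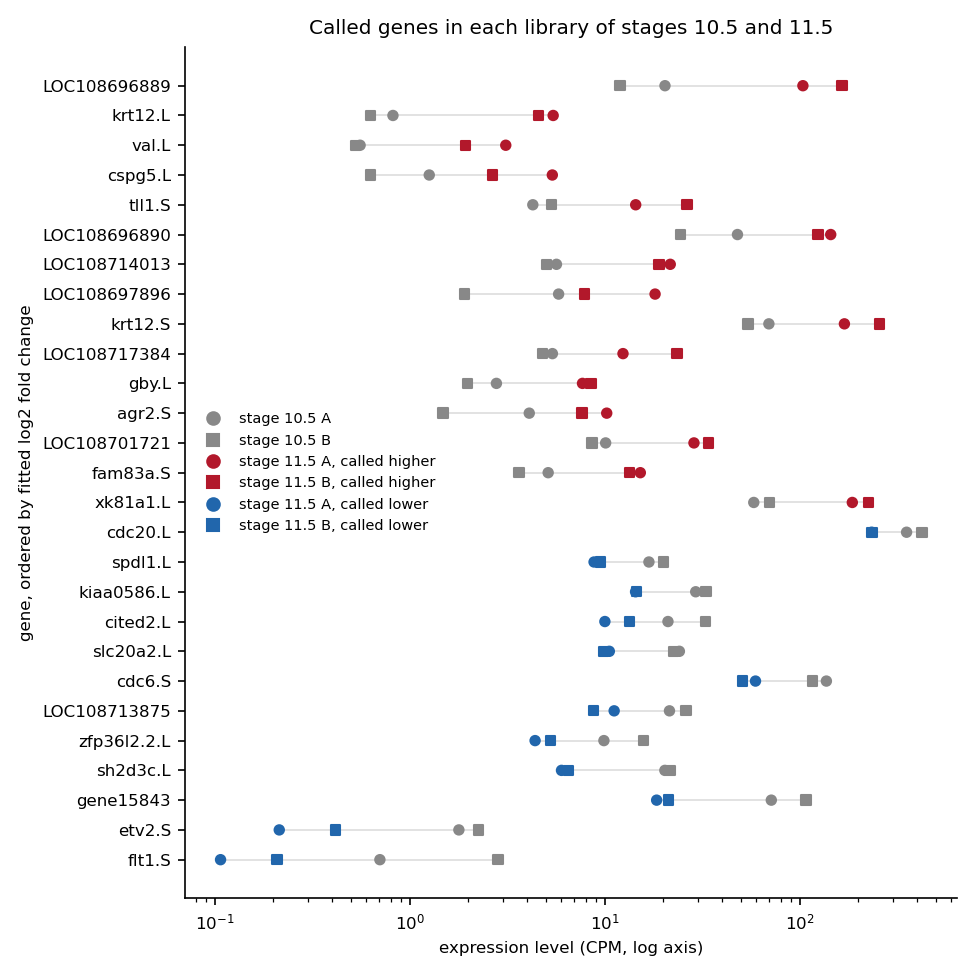
Expression level (CPM, log axis) in each of the 4 libraries for the 15 largest rises and the 12 falls, 1 point per library, with stage 10.5 in grey and stage 11.5 in colour. In every gene shown both coloured points lie on the same side of both grey points.

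Keratin genes were among the rises. Keratins build the intermediate filaments of epithelia, from pairs of type I and type II chains. The type I gene krt12.S was at 69.5 and 54.3 CPM at stage 10.5 and at 170 and 256 CPM at stage 11.5, a log2 fold change of 1.79 ± 0.21. Its homeolog krt12.L was at 0.82 and 0.63 CPM and then at 5.45 and 4.56 CPM, a log2 fold change of 2.78 ± 0.36. Both had an edgeR adjusted p of 0.0246. Both stage 11.5 libraries were above both stage 10.5 libraries for each copy.

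The type II gene krt5.7.S was at 884 and 506 CPM and then at 1696 and 1509 CPM, and krt5.7.L was at 573 and 383 CPM and then at 1103 and 1120 CPM. These rises were 1.27 ± 0.15 and 1.26 ± 0.17 on the log2 scale. The embryonic epidermal keratin gene xk81a1.L was at 58.2 and 69.8 CPM and then at 186 and 225 CPM, a log2 fold change of 1.68 ± 0.20. Its partner xk81a1.S, at 15.5 and 8.01 and then 30.3 and 34.2 CPM, was not called (log2 fold change 1.52 ± 0.27). Of 20 tested genes with a keratin symbol, 4 were called higher, 18 had a positive log2 fold change and the median was 0.58. Of all genes tested, 0.137% were called higher and 50.1% had a positive log2 fold change. Another keratin, krt.L, was at 73.3 and 9.82 CPM and then at 198 and 77.1 CPM. It was higher at stage 11.5 within each letter, but A was far above B at both stages, and it was not called. Reads shared between near-identical keratin copies may have been split or lost in counting, so the level of a single copy is uncertain.

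Genes of epithelial junctions were listed together with keratins. The list of keratins and junctions had 4 of 43 tested genes called higher, the 4 keratins above, and a median of 0.25. The adhesion molecule gene epcam.S was at 1597 and 1612 CPM and then at 1841 and 1866 CPM, a log2 fold change of 0.21 ± 0.09 that was not called. The scaffold gene tjp1.S was at 32.1 and 31.3 CPM and then at 21.1 and 23.2 CPM, with -0.51 ± 0.16, also not called. The periplakin gene ppl.S was at 0.18 and 0.45 CPM and then at 1.56 and 1.16 CPM, with 2.03 ± 0.63, higher in both letters and not called. Claudins, the sealing proteins of tight junctions, had 6 positive values of 18 tested and a median of -0.16, which was -0.27 without stage 11.5 A.

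The ectodermal factor trim29, a marker of basal epidermal cells, rose from both homeologs. trim29.L was at 262 and 163 CPM and then at 474 and 383 CPM, a log2 fold change of 1.05 ± 0.12 (edgeR, adjusted p = 0.0246). trim29.S was at 56.8 and 27.8 CPM and then at 105 and 74.3 CPM, with 1.14 ± 0.15. A was above B at both stages for both copies, and the stages did not overlap. Of 40 tested genes of the ectoderm factor list, 2 were called higher, 33 were positive and the median was 0.45. Of all genes tested, 0.137% were called higher and 50.1% were positive. Among those not called, dlx3.S, a homeobox gene of non-neural ectoderm, was at 55.3 and 40.7 CPM and then at 106 and 116 CPM. Its log2 fold change was 1.24 ± 0.24 with an edgeR adjusted p of 0.0726. grhl3.L, which encodes a grainyhead-like factor of epidermal differentiation, was at 531 and 400 CPM and then at 706 and 627 CPM, with 0.53 ± 0.10. In the fit of the 4 libraries alone, 15 of 39 genes of this list were called higher, where 2.92% of all genes were.

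Other rises included enzymes, secreted proteins and regulators. The Tolloid-like metalloprotease gene tll1.S, whose family cleaves the BMP antagonist Chordin, was at 4.28 and 5.33 CPM and then at 14.4 and 26.5 CPM, a log2 fold change of 2.06 ± 0.23. The disulfide isomerase gene agr2.S, known from mucus-secreting cells, was at 4.11 and 1.48 CPM and then at 10.2 and 7.67 CPM, with 1.76 ± 0.28. The gene gfpt1.L, for the rate-limiting enzyme of hexosamine synthesis, was at 386 and 305 CPM and then at 714 and 700 CPM, with 1.05 ± 0.14. In each of these genes both stage 11.5 libraries lay above both stage 10.5 libraries.

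Regulators of growth and transcription were among the rises as well. The Wnt pathway transcription factor gene lef1.L was at 6.1 and 8.06 CPM and then at 17.4 and 18.9 CPM, with a log2 fold change of 1.35 ± 0.18. The gene of the cyclin-dependent kinase inhibitor p21, cdkn1a.S, was at 10.3 and 6.46 CPM and then at 24.8 and 13.5 CPM, with 1.18 ± 0.17. LOC108714013, which RefSeq names rbl2.L, a retinoblastoma-like pocket protein gene, was at 5.66 and 5.05 CPM and then at 21.7 and 19.0 CPM, with 1.93 ± 0.20. The autophagy kinase gene ulk1.S was at 51.1 and 42.9 CPM and then at 102 and 91.5 CPM, with 1.04 ± 0.12. The smallest rise was that of cirbp.S, a cold-inducible RNA-binding protein gene, from 2363 and 2228 CPM to 3501 and 3547 CPM, with 0.62 ± 0.08. Adjusted p-values of these 5 genes lay under 0.05 in edgeR's quasi-likelihood test, and their libraries of the stages did not overlap.

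The remaining rises had log2 fold changes between 0.76 for top2b.L, a topoisomerase gene, and 3.09 for LOC108696889, whose fold change was 8.52 and was 5.39 without stage 11.5 B and 12.9 without stage 11.5 A. The proteoglycan gene cspg5.L rose by 2.09 ± 0.29 and val.L by 2.19 ± 0.34, both from low levels at stage 10.5. Rises between 1.31 and 1.78 were seen for the endoplasmic reticulum isomerase gene fkbp9.L, the G protein beta subunit gene gnb3.S, the adhesion molecule gene dscaml1.L, the mitochondrial nucleotidase gene nt5m.S, fam3d.S, fam83a.S, nxpe2.L, gby.L and LOC108717384, which RefSeq names capn8.1.S. LOC108715141, which RefSeq names ahnak.S, was at 26.7 and 33.8 CPM and then at 55.8 and 118 CPM. B at stage 11.5 was higher than A for this gene, and A and B did not overlap between stages. Of the 51 called genes, 13 have no gene name in the symbol table, and 3 of the 11 with a LOC symbol are named by RefSeq.

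The 12 falls included cell division genes. The replication licensing gene cdc6.S was at 137 and 116 CPM and then at 59.4 and 50.8 CPM, a log2 fold change of -1.20 ± 0.13. The gene cdc20.L, an activator of the anaphase-promoting complex, was at 353 and 424 CPM and then at 234 and 235 CPM, with -0.72 ± 0.11. The kinetochore gene spdl1.L was at 16.9 and 20.1 CPM and then at 8.83 and 9.49 CPM, with -1.01 ± 0.15. A and B were close to each other at stage 11.5 in all 3 genes. The other copies were not called: cdc6.L had -0.40 ± 0.10, cdc20.S -0.23 ± 0.13 and spdl1.S -0.22 ± 0.16.

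Of the cell cycle list, 1 of 56 tested genes was called higher, cdkn1a.S, and 1 lower, cdc20.L, against 0.137% and 0.0421% of all genes. The median of the list was 0.06, and it was -0.07 under library-size scaling. The replicative helicase gene mcm7.L was at 1319.6 and 1089.5 CPM and then at 1432 and 1206 CPM, and the mitotic cyclin gene ccnb1.2.L was at 864 and 745 CPM and then at 702 and 536 CPM. Neither passed the test, with log2 fold changes of 0.13 ± 0.10 and -0.38 ± 0.11.

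A pair of genes with known roles in blood and vessel formation fell to trace levels. The gene etv2.S, which encodes a transcription factor of endothelial and blood progenitors, was at 1.79 and 2.26 CPM and then at 0.21 and 0.42 CPM. Its log2 fold change was -2.68 ± 0.37 (edgeR, adjusted p = 0.0246). The vascular endothelial growth factor receptor gene flt1.S was at 0.70 and 2.84 CPM and then at 0.11 and 0.21 CPM, with -3.43 ± 0.54 and an edgeR adjusted p of 0.0321. The values at stage 11.5 rest on 8 and 14 counts for etv2.S and on 4 and 7 counts for flt1.S. Their fitted fold changes therefore depend on few reads, and that of flt1.S was -2.70 on the log2 scale without stage 11.5 B. Both had risen between stages 9 and 10.5. The mesoderm marker sums given above were lower at stage 11.5 in both letters as well, and the part of other cell types in these falls was not tested.

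The other falls were of varied function. The mRNA decay factor gene zfp36l2.2.L was at 9.92 and 15.8 CPM and then at 4.4 and 5.28 CPM, with -1.40 ± 0.19. The transcriptional coregulator gene cited2.L was at 21.1 and 32.8 CPM and then at 10.03 and 13.4 CPM, with -1.19 ± 0.15. The phosphate transporter gene slc20a2.L was at 24.2 and 22.5 CPM and then at 10.6 and 9.84 CPM, with -1.19 ± 0.15. For kiaa0586.L, which encodes a centriolar protein required for cilia in vertebrates, the levels were 29.3 and 33.1 CPM and then 14.4 and 14.5 CPM, with -1.11 ± 0.14. In all 4 genes both stage 11.5 libraries were below both stage 10.5 libraries, and all had an adjusted p under 0.05 in edgeR's quasi-likelihood test. The signalling adaptor gene sh2d3c.L, LOC108713875 and gene15843 made up the rest, with -1.75, -1.27 and -2.15 on the log2 scale.

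**Figure D3:**
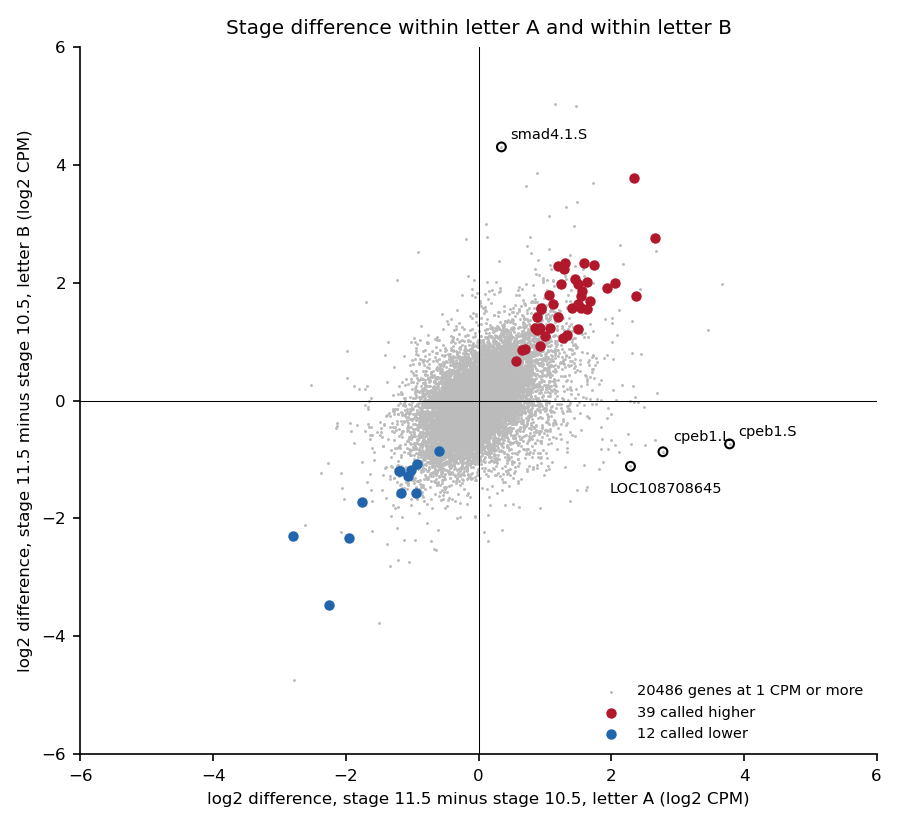
Log2 difference between stages 11.5 and 10.5 (log2 CPM, prior count of 2) within letter A (horizontal) and within letter B (vertical), 1 point per gene, with called genes in colour and genes of the outlying libraries ringed. All 39 called rises lie in the upper right and all 12 called falls in the lower left, while smad4.1.S and the cpeb1 copies lie off the diagonal.

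The letters could be read as separate comparisons. Among 20486 genes with a mean of at least 1 CPM, 166 were at least 2-fold higher in both letters, or 0.81%, and 88 were at least 2-fold lower in both, or 0.43%. Another 15 genes moved past 2-fold in opposite directions. Within A, 500 genes were past 2-fold higher and 267 lower, and within B 589 and 549. The SD of the log2 differences was 0.438 in A and 0.517 in B. The sign was shared by 70.9% of the genes.

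Some genes differed by as much in both letters without being called. tbc1d24.2.S was at 5.31 and 3.94 CPM and then at 23.5 and 24.8 CPM, a log2 fold change of 2.43 ± 0.41 with an edgeR adjusted p of 0.0614. The collagen gene col18a1.L was at 17.3 and 15.7 CPM and then at 45.2 and 50.7 CPM, with 1.54 ± 0.40. On the lower side, the anterior homeobox gene hesx1.L was at 22.2 and 12.1 CPM and then at 8.72 and 4.80 CPM, with -1.34 ± 0.29. The hairy-related gene hes7.1.L was at 12.1 and 5.2 CPM and then at 2.87 and 1.82 CPM, with -1.83 ± 0.52. These 4 genes differed without overlap between stages, as did 5875 higher and 5285 lower of all 28490 genes tested, and the fit did not call them.

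Homeologs, the L and S copies of a gene in this allotetraploid frog, were compared for the called genes. Of 38 called genes with such a symbol, 27 had a tested partner, and 26 partners had a log2 fold change of the same sign. In 3 pairs, krt12, krt5.7 and trim29, both copies were called. These 6 genes are therefore counted among the 27 as partners of each other. The share of same-sign pairs among all genes was not counted, and reads shared between near-identical copies may enter it. The exception was dscaml1, whose L copy rose 3.02-fold while the S copy had a log2 fold change of -0.17 ± 0.61 at levels near 1 CPM. The G protein gene gnb3 differed in size: gnb3.S rose from 9.83 and 12.6 CPM to 28.8 and 42.9 CPM, and gnb3.L was at 70.4 and 68.0 CPM and then at 105 and 135 CPM, with 0.78 ± 0.18. Differences between the copies were not tested.

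The called genes were followed at the neighbouring stages, in comparisons that share the stage 10.5 and 11.5 libraries and so are not independent. The median level of the 39 rising genes was 0.50 and 0.38 CPM at stage 9, 10.3 and 9.85 CPM at stage 10.5, 28.8 and 34.1 CPM at stage 11.5 and 112 and 79.7 CPM at stage 12.5. Under 1 CPM at stage 9 were 26 of them. Their median log2 fold change was 4.94 between stages 9 and 10.5 and 1.08 between stages 11.5 and 12.5. In the later step 36 of the 39 were positive. The median of the 12 falling genes was 125 and 152 CPM at stage 9, 21.3 and 24.4 CPM at stage 10.5, 10.3 and 9.67 CPM at stage 11.5 and 4.33 and 4.47 CPM at stage 12.5. Their median log2 fold change between stages 9 and 10.5 was -1.97. The 3 genes flt1.S, etv2.S and sh2d3c.L went the other way in that step, with 5.33, 5.52 and 2.48. Between stages 11.5 and 12.5 the median of the 12 was -1.11, and all 12 were negative. Shares of all genes called in these 2 steps are not given here.

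**Figure D4:**
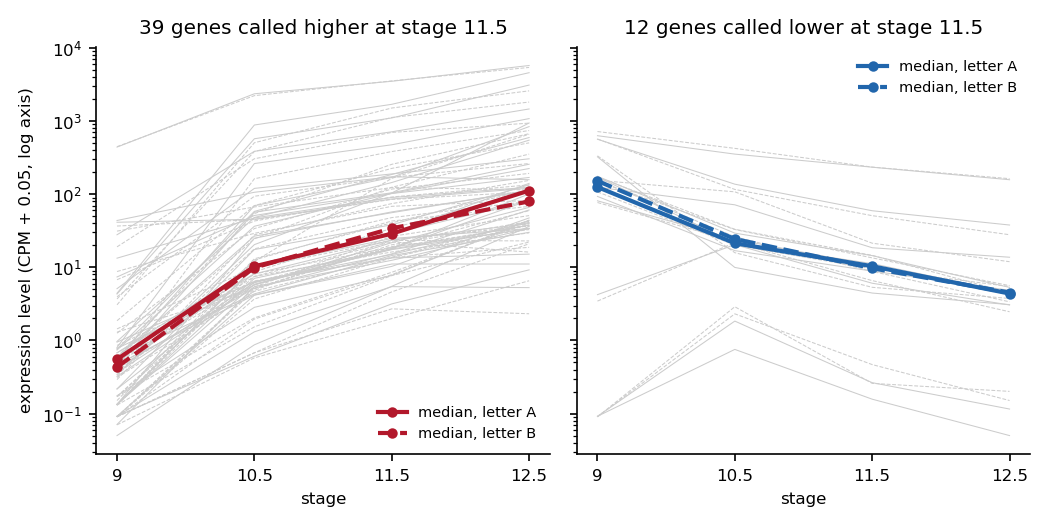
Expression level (CPM + 0.05, log axis) by stage for the 39 genes called higher and the 12 called lower, with a grey line per gene and letter and a thick line for the median of each letter. The medians of the rising genes climb from under 1 CPM at stage 9 to 112 and 79.7 CPM, and those of the falling genes drop from 125 and 152 CPM to 4.33 and 4.47 CPM.

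Lists of genes for the cell types and pathways of this tissue were counted beside all genes, of which 50.1% had a positive log2 fold change. For every list, the shares of all genes called are 0.137% higher and 0.0421% lower. Without overlap between stages, 5875 of all 28490 genes tested were higher and 5285 lower, so lack of overlap alone sets few genes apart. Some list medians rested on single libraries: without stage 10.5 B that of ionocyte genes was 0.01 and that of secretory genes 0.38, and without stage 11.5 B that of BMP targets was 0.06 and that of mesoderm genes -0.38. Library-size scaling moved the medians of the 22 lists and 5 families by -0.15 to -0.13, close to the shift of all genes. The multiciliated list had 25 positive values of 32 tested genes, a median of 0.25, which was 0.46 without stage 11.5 A, and 0 called genes. The master regulator gene mcidas.S, at 0.79 and 0.50 and then 2.74 and 7.1 CPM, had a log2 fold change of 2.97 ± 0.75, and B exceeded A at stage 11.5. The ciliary transcription factor gene foxj1.S was at 54.6 and 50.2 CPM and then at 104 and 126 CPM, with 1.13 ± 0.26 and an edgeR adjusted p of 0.112. Its stages did not overlap. gmnc.L, which encodes a regulator upstream of mcidas, was at 20.4 and 15.8 CPM and then at 44.1 and 47.8 CPM, with 1.35 ± 0.50. The list also had 7 negative values. Among them gmnn.S was at 222 and 187 CPM and then at 135 and 117 CPM, with -0.70 ± 0.17 and no overlap between stages. The other copy gmnc.S, near 1 CPM or below, had -1.17 ± 0.56, and deup1.L_ccdc67.L had -0.79 ± 0.23. In the fit of the 4 libraries alone, 10 of the 32 genes were called higher and 2 lower, where 2.92% and 2.02% of all genes were. In the authors' deposited table of this comparison, 7 genes of the list had a positive log2 fold change and an adjusted p under 0.05, as did 0.698% of the 17631 genes with an adjusted p in that table.

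Of 16 tested secretory genes, 1 was called higher, agr2.S, 13 were positive and the median was 0.61. The mucin-like gene otog.L was at 5.13 and 1.78 CPM and then at 12.9 and 17.9 CPM, with 2.27 ± 0.39 and an edgeR adjusted p of 0.0576. The secretory transcription factor gene xbp1.L was at 348 and 287 CPM and then at 419 and 475 CPM, with 0.49 ± 0.14. Of the 3 negative values, the largest in size was that of foxa1.L. It was at 1.00 and 1.26 CPM and then at 0.64 and 0.36 CPM, with -1.16 ± 0.55. Of 27 ionocyte genes, 0 were called, 18 were positive and the median was 0.19. The ionocyte master regulator gene foxi1.L was at 75.9 and 56.7 CPM and then at 103 and 120 CPM, with 0.82 ± 0.42, and ubp1.L was at 3.4 and 2.89 CPM and then at 8.50 and 12.7 CPM, with 1.77 ± 0.46. Neither was called. The stages did not overlap for either gene, as was so on the higher side for 5875 of all 28490 genes tested. Of the 9 negative values, the largest in size were those of dmrt2.L, with -1.09 ± 1.28, and dmrt2.S, with -0.93 ± 0.59. dmrt2.L was at 1.29 and 2.81 CPM and then at 0.91 and 0.92 CPM. The proton pump gene atp6v1a.S was at 44.5 and 42.0 CPM and then at 40.3 and 40.2 CPM, with -0.10 ± 0.15. Notch ligands, receptors and modifiers had 0 of 28 genes called, 21 positive values and a median of 0.15, which was 0.06 without stage 10.5 B and 0.25 without stage 11.5 A, with notch1.S at 152 and 142 CPM and then at 132 and 198 CPM.

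**Figure D5:**
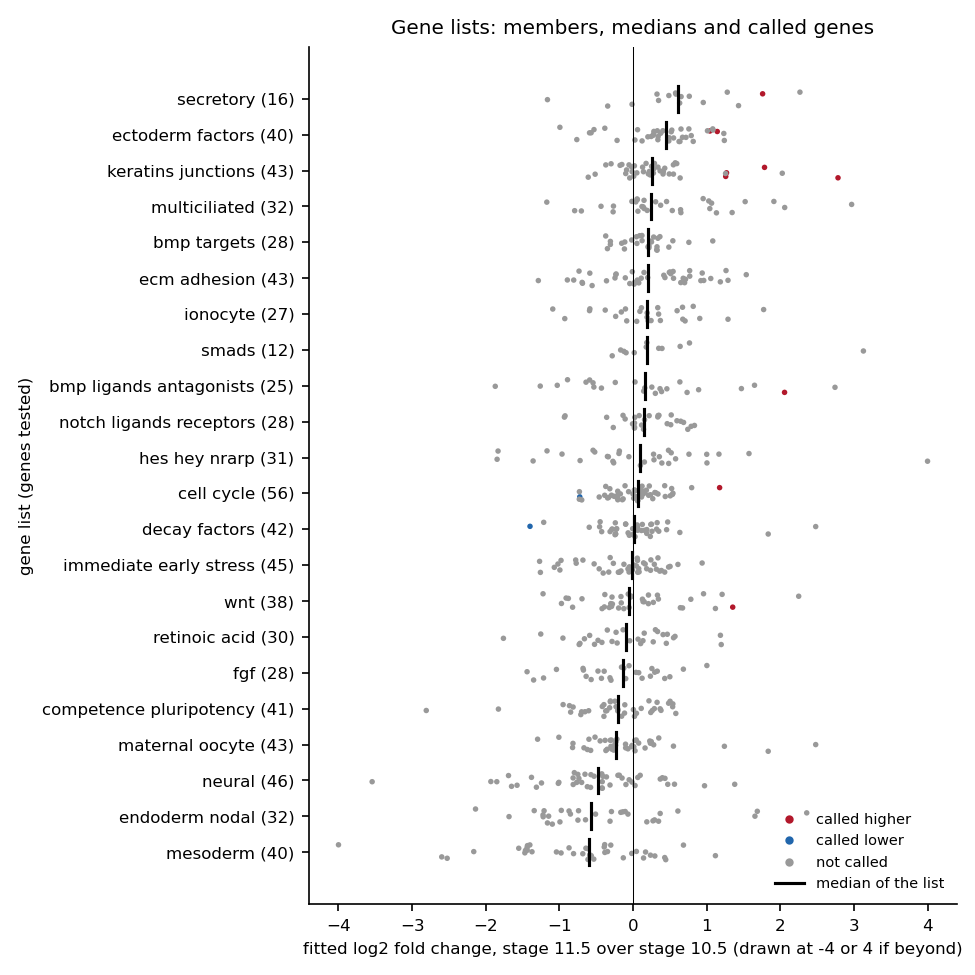
Fitted log2 fold change of each tested gene in 22 gene lists, ordered by list median, with called genes in colour and the black bar at the median. Secretory and ectoderm factor genes have the highest medians, 0.61 and 0.45, and neural, endoderm and mesoderm genes the lowest, -0.48, -0.58 and -0.60.

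Of 25 BMP ligand and antagonist genes, tll1.S was called higher, 15 were positive and the median was 0.16, which was 0.36 without stage 10.5 A. The ligand gene bmp4.S was at 54.9 and 46.7 CPM and then at 82.2 and 75.4 CPM, with 0.64 ± 0.15. The dorsal ligand gene admp.L was at 1.17 and 0.80 CPM and then at 0.40 and 0.12 CPM, with -1.87 ± 0.57. Neither was called. Among 28 BMP target genes, 0 were called, 20 were positive, 8 were negative and the median was 0.21. The direct target id3.S was at 768 and 627 CPM and then at 706 and 580 CPM, with -0.12 ± 0.26, and gata2.L, a factor of ventral ectoderm, was at 117 and 85.8 CPM and then at 175 and 240 CPM, with 1.08 ± 0.27. The largest negative value was that of ventx2.2.L, at 237.4 and 302.5 CPM and then at 207.5 and 204.9 CPM, with -0.37 ± 0.18. Its relatives ventx2.1.S and ventx2.1.L had -0.31 ± 0.26 and -0.31 ± 0.15, lower at stage 11.5 within each letter. Of 12 Smad genes, with the outlier smad4.1.S kept among them, 0 were called. Their median was 0.18, or 0.04 without stage 11.5 B.

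Genes of other germ layers were counted next, and none of the mesoderm or endoderm genes listed was called. The mesoderm list had 0 of 40 genes called, 9 positive values and a median of -0.60, while its summed level was 641 and 856 CPM at stage 10.5 and 773 and 711 CPM at stage 11.5, higher in A and lower in B. Its largest negative value was that of foxa4.S, a forkhead gene of the organizer and notochord, at 1.41 and 2.91 CPM and then at 0.16 and 0.06 CPM, with -4.26 ± 0.98 and an edgeR adjusted p of 0.104. foxa4.L was at 4.64 and 11.3 CPM and then at 1.61 and 0.78 CPM, with -2.60 ± 0.59. B was above A at stage 10.5 for both copies and below A at stage 11.5. The T-box gene vegt.S was at 40.0 and 103 CPM and then at 44.1 and 58.4 CPM, so that it differed in sign between letters. The highest mean levels of the list were those of aplnr.L and aplnr.S, both higher at stage 11.5 within each letter. aplnr.L was at 195 and 113 CPM and then at 211 and 132 CPM, with 0.17 ± 0.34. aplnr.S was at 149.5 and 89.7 CPM and then at 274 and 128 CPM, with 0.69 ± 0.42. For both genes the stages overlapped. In the fit of the 4 libraries alone, 8 of 40 mesoderm genes were called lower and 1 higher. Of all genes in that fit, 2.02% were called lower and 2.92% higher. The endoderm and Nodal list had 0 of 32 genes called, 9 positive values and a median of -0.58, which was -0.25 without stage 10.5 B. Its median difference was -0.03 within A and -0.74 within B, and of the 12 tested endoderm markers 6 were positive. The endodermal gene sox17b.2.L was at 16.8 and 32.4 CPM and then at 7.78 and 13.3 CPM, with -1.21 ± 0.27. The largest positive values of the list were those of gata4.L, with 2.36 ± 0.72, and gata4.S, with 1.69 ± 0.55. Both were at low levels, gata4.S at 0.41 and 1.53 CPM and then at 1.96 and 4.56 CPM.

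The neural list had 0 of 46 genes called, 10 positive values and a median of -0.48. sox3.S, a SoxB1 gene of early ectoderm and neural progenitors, was at 554 and 618 CPM and then at 325 and 425 CPM. Its log2 fold change was -0.65 ± 0.10 with an edgeR adjusted p of 0.0557, and the stages did not overlap. The eye field gene rax.L was at 2.64 and 2.26 CPM and then at 0.83 and 0.45 CPM, with -1.93 ± 0.44. Opposite to these, elavl3.L was at 72.7 and 64.7 CPM and then at 95.3 and 82.3 CPM, with 0.37 ± 0.15, and ncam1.L had 0.97 ± 0.21. In the fit of the 4 libraries alone, 7 of the 46 genes were called lower and 1 higher. The shares of all genes in that fit were 2.02% lower and 2.92% higher.

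Of 41 competence genes 0 were called, 16 were positive and the median was -0.21. The Oct4-related gene pou5f3.2.S was at 832 and 784 CPM and then at 399 and 487 CPM, with -0.86 ± 0.14 and an edgeR adjusted p of 0.0557. Its relative pou5f3.1.L was at 716 and 634 CPM and then at 864 and 1079.7 CPM, with 0.54 ± 0.16. The stages did not overlap for either gene, in opposite directions. The forkhead gene foxd3.L was at 2.08 and 4.45 CPM and then at 0.86 and 0.95 CPM, with -1.83 ± 0.37. Of 43 maternal and oocyte genes 0 were called, and the median was -0.23. Within A the median difference was 0.01 and within B -0.27, and without stage 11.5 B the fitted median was 0.04, and without stage 11.5 A it was -0.36. This list holds cpeb1.L and cpeb1.S, which were raised in stage 11.5 A as given above.

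Ribosomal protein genes showed a small difference shared by nearly the whole family. Of 127 tested cytoplasmic ribosomal protein genes, 119 were positive, with a median of 0.49 and 0 called genes. Their summed level was 5322 and 4689 CPM at stage 10.5 and 6810 and 6998 CPM at stage 11.5. In 114 of the genes both stage 11.5 libraries were above both stage 10.5 libraries, as was so for 5875 of all 28490 genes tested. Under library-size scaling the median was 0.36, against -0.13 for all genes. With the 4 libraries alone 47 of 125 were called higher and 0 lower, where 2.92% and 2.02% of all genes were.

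The authors' deposited table of this comparison calls 180 genes at an adjusted p under 0.05, 123 higher (0.698%) and 57 lower (0.323%). It shares 35 genes with the 51 calls made here, all with the same direction, which is 68.6% of the 51 and 19.4% of the 180. Among the genes of the authors' deposited table that were not called here, the smallest adjusted p-values belonged to tbc1d24.2.S, col18a1.L, gmnc.L and foxj1.S. The first 2 have log2 fold changes of 1.87 and 1.31 in the authors' deposited table and 2.43 and 1.54 in the blocked edgeR fit. These fits differ in method, so the sizes are not like for like: the values of flt1.S are -0.79 and -3.43. LOC108696836, which RefSeq names hspg2.L, the perlecan gene, was also among the first 10, at 25.5 and 19.9 CPM and then at 53.1 and 118 CPM. Its difference was larger in B than in A.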

How the data were processed

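Poly-A RNA was sequenced as read pairs without strand information, per the labels' protocols, so overlapping, antisense and near-identical genes are uncertain. The authors deposited whole-number raw counts per gene for 8 libraries (51017 gene IDs, 48349 with a symbol; the other 2668 hold 1.71% of the counts). The submitters' processing notes name FastQC 0.11.5, STAR 2.6.0b-1, featureCounts 1.6.3 and DESeq2 1.22.1; the genome build is not given in the sources used here. The authors' deposited comparison table holds log2 fold changes and p-values with adjusted p-values, and its base means and Wald statistics were not used.

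Counts were analysed with R 4.3.3 and edgeR 4.0.16: filterByExpr by stage, TMM scaling, glmQLFit with the current (not legacy) dispersion estimate and glmQLFTest on stage plus letter over all 8 libraries, with 3 residual degrees of freedom, and Benjamini-Hochberg adjustment over 28490 genes. The function was tested on simulated data. Standard errors come from the F statistic. Log2 differences within a letter use a prior count of 2. Letters pair the libraries: deviations from stage means correlated within letters at all 6 pairs of stages (r from 0.374 to 0.597). Libraries of a stage differed beyond sampling noise (chi-square per degree of freedom 32.1 at stage 10.5 and 63.0 at stage 11.5). The outlier smad4.1.S, with 109744 and 1039346 counts at stage 11.5, was kept in these values. They therefore do not show that the other genes were noisier at stage 11.5. Alternatives used limma 3.58.1 and DESeq2 1.42.0.

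Genes named are the 15 largest rises and all falls, other called genes, per list the called genes, the 4 highest levels and the 2 largest changes in each direction, the 5 largest shared differences not called, the 5 largest opposite differences, smad4.1, homeologs of called genes and the first 10 genes of the authors' table not called here; ccnb5.L and cat.2.L were chosen after their values were seen. The comparison and the 22 lists (543 symbols, 482 found) were chosen with earlier results of these data known. Symbols without a name were looked up in a RefSeq gene table (Xenopus_laevis_v10.1). The floor of 3 counts covers counting error only, while the standard errors also hold the estimated spread between libraries after stage and letter. 1 gene covered by the naming rule is not reported here.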

Additional observations from a re-analysis of the deposited data

How the results depend on the processing

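The count of 51 calls became 0 with no replicate block (2438 genes at an unadjusted p under 0.05 in edgeR; 179 by DESeq2 by stage on the 4 libraries), 1305 with the 4 libraries alone, 1135 with DESeq2 and the letter as block, 113 with no filter beyond 1 count, 21 with the legacy dispersion estimate and 416 at an adjusted p under 0.10. Leaving out 1 library gave 0 to 229 calls. RLE scaling, a filter of 1 CPM, library-size scaling, limma-voom and removal of smad4.1.S gave 54, 51, 72, 74 and 54. The count of 254 genes past 2-fold in both letters was 721 with no filter and 105 at 5 CPM or more. No called gene changed direction in any setting run, and of the results for single called genes 560 kept their call and 408 lost it. The cause of these differences was not tested. With 2 libraries per stage, differences that are small beside the spread left after stage and letter could be missed.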

Other observations

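Extracellular matrix genes had 28 positive values of 43 tested, a median of 0.20 and 0 called genes, and the median was 0.35 without stage 10.5 A. In 5 of 32 genes at 1 CPM or more the level was at least 2-fold higher in both letters, against 0.81% of all such genes. The laminin gene lamb1.L_LOC108711179 was at 7.63 and 8.62 CPM at stage 10.5 and at 16.4 and 23.7 CPM at stage 11.5. The fibronectin gene fn1.S was at 552 and 468 CPM and then at 378 and 476 CPM, so that its sign differed between the letters. Of 38 Wnt genes 1 was called, lef1.L, and the median was -0.06; it was 0.04 without stage 11.5 A. The ligand gene wnt11b.L was at 43.9 and 97.9 CPM and then at 27.1 and 27.5 CPM, with -1.22 ± 0.31, not called.

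FGF genes had 0 of 28 called and a median of -0.14, which was -0.0046 without stage 11.5 B and -0.33 without stage 11.5 A. The receptor gene fgfr2.S was at 35.6 and 31.8 CPM and then at 65.9 and 68.3 CPM, with 1.00 ± 0.16 and an edgeR adjusted p of 0.0557. The ligand gene fgf8.L was at 6.6 and 10.4 CPM and then at 2.79 and 3.37 CPM, with -1.44 ± 0.36. Retinoic acid genes had 0 of 30 called and a median of -0.09, which was 0.07 with a filter of 1 CPM. Hes, Hey and Nrarp genes had 0 of 31 called and a median of 0.10, which was -0.08 with the 4 libraries alone and -0.03 under library-size scaling. Immediate-early and stress genes had 0 of 45 called and a median of -0.01, which was 0.17 without stage 11.5 B and -0.24 without stage 11.5 A, and RNA decay genes had 1 of 42 called, zfp36l2.2.L, and a median of 0.01, which was -0.06 without stage 11.5 A. Proteasome subunits had 53 of 59 positive values and a median of 0.21, and nuclear genes of oxidative phosphorylation had 103 of 125 and 0.17.

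Beside smad4.1.S, the genes of stage 11.5 B at 5 CPM or more that exceeded 4 times every other library were LOC108710739, at 20.7 CPM, and Xelaev18002440m, at 5.91 CPM. These were chosen after their values were seen.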
